A study of Mus musculus with 3 samples.

Results

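The genes described here are 10 Fc receptors, scavenger receptors and macrophage surface markers, namely Fcgr1, Fcgr2b, Fcgr3, Fcgr4, Msr1, Cd36, Mrc1, Cd163, Cd68 and Adgre1. They were chosen by name, as every transcript of the mRNA table whose GENCODE M21 gene symbol is one of these. Of the 15844 genes of the table, 9 were members, with 27 of its 56651 transcripts, while Cd163 had no row in the mRNA table used here. A minimum of 20 reads over the 3 libraries was met by 8 members and by 12702 genes in all, and each of these 8 had at least 31 reads in every library.

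RNA was sequenced from apoptotic bodies (ABs), the membrane-bound fragments shed by dying cells, in 1 library for each stage of osteoclast differentiation of male C57BL/6 mice at postnatal week 11. Bone marrow cells that floated after 24 h were grown in 50 ng/ml M-CSF over 72 h to give bone marrow macrophages (BMM). Adding 100 ng/ml RANKL with 30 ng/ml M-CSF gave preosteoclasts (pOC) at 24 h and mature osteoclasts (mOC) at 72 h or later. Per the labels, all 3 cultures then received 500 μM alendronate over 12 h to make them shed ABs. The methods of the study name staurosporine as the inducer instead. They also give a time later than 72 h for mOC, more than 30 ng/ml M-CSF with RANKL and less than 72 h of M-CSF for BMM. The sample titles name the cells where the series design names the ABs. The libraries were therefore taken here as AB libraries (BMM-ABs, then pOC-ABs, then mOC-ABs), and values follow that order of stages where no library is named. The labels do not say how many mice gave the marrow. Since there was 1 library per condition, no difference could be set against a replicate spread and no p-value is given.

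Fcγ receptors bind the constant part of IgG. Fcgr1, Fcgr3 and Fcgr4 encode activating receptors that signal through the shared γ chain encoded by Fcer1g, whereas Fcgr2b encodes the inhibitory receptor of the family, which carries its own inhibitory motif. Scavenger receptors such as those encoded by Msr1, Cd36, Mrc1 and Cd163 take up modified lipoproteins, fatty acids, mannosylated glycoproteins and haemoglobin complexes, and Adgre1 (F4/80) and Cd68 are the usual markers of mouse macrophages, the lineage from which osteoclasts arise. Mature osteoclasts are known to carry little F4/80.

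Sequences in which some transcript forms differ are shown first. In Fcgr2b, transcript 201 contains a coding exon that transcript 202 skips. The exon encodes part of the cytoplasmic tail, and the form with it is known from B cells while the form without it is the usual one of macrophages. It lies at chr1:170963325-170963465 (GRCm38, minus strand) and is 141 bases long.

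Fcgr2b cassette exon: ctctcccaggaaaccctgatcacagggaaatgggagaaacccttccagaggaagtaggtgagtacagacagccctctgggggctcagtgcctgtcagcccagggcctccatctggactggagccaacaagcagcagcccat

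In Msr1, transcript 201 encodes the type I scavenger receptor, whose last 320 coding bases, on 2 exons, give the cysteine-rich domain that the type II receptor of transcript 202 lacks. These exons, at chr8:39589290-39589478 and chr8:39581735-39581865 on the minus strand, are shown because they tell the forms apart.

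Msr1-201 exon A: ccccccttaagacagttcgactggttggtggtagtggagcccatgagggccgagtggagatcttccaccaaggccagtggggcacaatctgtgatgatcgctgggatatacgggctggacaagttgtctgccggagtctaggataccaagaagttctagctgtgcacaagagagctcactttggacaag

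Msr1-201 exon B: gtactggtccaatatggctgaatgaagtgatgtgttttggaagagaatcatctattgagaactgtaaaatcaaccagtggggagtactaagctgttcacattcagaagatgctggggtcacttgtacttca

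In Fcgr3, transcripts 201 and 204 differ in the coding sequence by 3 bases at the start of 1 exon, at chr1:171057919-171057948 on the minus strand. Capitals mark the bases that transcript 204 lacks.

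Fcgr3-201 exon start: CAGctcttccgaaggctgtggtgaaactgg

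Fcgr3-204 exon start: ctcttccgaaggctgtggtgaaactgg

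The promoters of 4 members are shown next because their genes went different ways between the libraries, Fcgr1 and Fcgr3 being lower in mOC-ABs while Fcgr4 and Cd68 were not past the limit used below. They are the RefSeq bases upstream of the gene start (GRCm38.p6), written in the direction of transcription and without any base that the annotation places in an exon. Capitals mark GAGGAA or its reverse complement TTCCTC, the core bound by the myeloid factor PU.1. The Fcgr1 promoter is chr3:96293970-96294219 (minus strand), that of Fcgr3 chr1:171059404-171059626 (minus strand), that of Fcgr4 chr1:171018676-171018919 (plus strand) and that of Cd68 chr11:69666171-69666420 (minus strand).

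Fcgr1 promoter: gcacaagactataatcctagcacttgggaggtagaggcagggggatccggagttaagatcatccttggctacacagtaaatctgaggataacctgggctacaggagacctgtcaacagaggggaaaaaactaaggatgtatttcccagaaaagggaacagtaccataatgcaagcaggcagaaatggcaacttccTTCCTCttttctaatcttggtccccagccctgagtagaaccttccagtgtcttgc

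Fcgr3 promoter: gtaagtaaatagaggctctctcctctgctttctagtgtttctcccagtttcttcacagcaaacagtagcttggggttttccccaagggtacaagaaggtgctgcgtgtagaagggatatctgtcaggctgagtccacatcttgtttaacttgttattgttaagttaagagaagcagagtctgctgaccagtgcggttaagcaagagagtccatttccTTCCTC

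Fcgr4 promoter: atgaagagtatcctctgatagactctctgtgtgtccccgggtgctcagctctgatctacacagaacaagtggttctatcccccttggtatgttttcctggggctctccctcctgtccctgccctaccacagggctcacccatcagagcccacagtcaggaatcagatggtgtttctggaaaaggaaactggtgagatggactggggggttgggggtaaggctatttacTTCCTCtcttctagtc

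Cd68 promoter: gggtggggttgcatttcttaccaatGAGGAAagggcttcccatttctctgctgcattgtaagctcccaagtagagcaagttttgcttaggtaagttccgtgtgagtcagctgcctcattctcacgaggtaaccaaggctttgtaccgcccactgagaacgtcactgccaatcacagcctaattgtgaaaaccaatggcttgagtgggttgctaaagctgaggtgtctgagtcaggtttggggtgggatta

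Both strands of the 250 bases upstream were searched in the 8 members with a promoter entry, which leaves out Msr1 and Adgre1. GAGGAA occurred once each in Fcgr1, Fcgr3 and Fcgr4, where the first base of the match lay 55, 6 and 22 bases before the gene start, and once in Cd68, 225 bases before it. Mrc1 had 3 matches, while Fcgr2b, Cd36 and Cd163 had 0. The AP-1 motif TGANTCA occurred in Cd68 at 149 and 24 bases before the start and in none of the other 7 promoters, and TATAAA occurred in none of the 8. Of 32851 mouse promoters of the same length, 23.3% held GAGGAA, 6.75% TGANTCA and 12.4% TATAAA. The matches are a description of these letters. Of the members past the limit in mOC-ABs against BMM-ABs, Fcgr1 and Fcgr3 held GAGGAA, Fcgr2b did not and Adgre1 was not searched. Of those not past it, Fcgr4 and Cd68 held GAGGAA and Cd36 did not.

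The mRNA tables summed to 9100082, 7387317 and 7705592 reads by stage. Levels are given in reads per 1000000 reads of this table (rpm), in which 3 reads, the limit a count of 0 allows, were 0.330, 0.406 and 0.389. The identity of the libraries was checked on osteoclast markers. The summed level of 10 markers, of which 9 were listed, was 345 rpm in BMM-ABs, 581 rpm in pOC-ABs and 1870 rpm in mOC-ABs. Acp5, the tartrate-resistant acid phosphatase, was at 9.67, 39.5 and 280 rpm in that order and Ctsk, the collagen-degrading protease, at 19.8, 23.1 and 130 rpm, whereas Calcr had no listed transcript and Itgb3 had 6, 3 and 0 reads. None of the 8 neutrophil, 2 NK cell, 4 erythroid or 4 mast cell and basophil markers was listed, and the summed level of the B cell, T cell, dendritic cell, megakaryocyte, stromal and endothelial lists was at most 6.10 rpm in any library. In such bulk material, fewer bodies from one kind of cell and less RNA per body cannot be told apart.

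Fcgr1 (ENSMUSG00000015947.10, chr3:96282909-96293969, minus strand), the high-affinity IgG receptor, had 227, 95 and 31 reads by stage. These were 24.9 rpm (exact Poisson 95% interval 21.8 to 28.4), 12.9 rpm (10.4 to 15.7) and 4.02 rpm (2.73 to 5.71). The level was thus highest in BMM-ABs and lowest in mOC-ABs, and no interval overlapped another. In mOC-ABs it was 6.20-fold lower than in BMM-ABs, with a log2 ratio of -2.63 (exact binomial 95% interval -3.22 to -2.09), and only 1.35% of the genes compared had a lower ratio. The step from BMM-ABs to pOC-ABs had a log2 ratio of -0.96 (-1.32 to -0.60) and that from pOC-ABs to mOC-ABs of -1.68 (-2.31 to -1.08). The intervals cover counting error only, as no molecular identifiers were used, and they say nothing of the spread between cultures.

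Fcgr3 (ENSMUSG00000059498.13, chr1:171051174-171064935, minus strand), a low-affinity activating receptor, had 312, 139 and 52 reads. Its level was 34.3 rpm (30.6 to 38.3), 18.8 rpm (15.8 to 22.2) and 6.75 rpm (5.04 to 8.85). The order of the libraries was that of Fcgr1, again with no overlap between intervals. It was 5.08-fold lower in mOC-ABs than in BMM-ABs, at a log2 ratio of -2.34 (-2.80 to -1.92), with -0.87 (-1.16 to -0.57) from BMM-ABs to pOC-ABs and -1.48 (-1.97 to -1.01) from pOC-ABs to mOC-ABs.

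Fcgr2b (ENSMUSG00000026656.15, chr1:170958617-170976547, minus strand), the inhibitory receptor, had 272, 83 and 42 reads. Its level was 29.9 rpm (26.4 to 33.7) in BMM-ABs, 11.2 rpm (8.95 to 13.9) in pOC-ABs and 5.45 rpm (3.93 to 7.37) in mOC-ABs. Among the 8 members compared it had the lowest ratio of pOC-ABs to BMM-ABs, 2.66-fold lower at a log2 ratio of -1.41 (-1.78 to -1.05), with an interval that overlapped those of Fcgr1 and Fcgr3. In mOC-ABs it was 5.48-fold lower than in BMM-ABs (log2 ratio -2.46, -2.96 to -1.98) and 2.06-fold lower than in pOC-ABs (-1.04, -1.62 to -0.49). On protein-coding transcripts alone its log2 ratio of mOC-ABs to BMM-ABs was -1.93.

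Fcgr4 (ENSMUSG00000059089.4, chr1:171018920-171029761, plus strand), the third activating receptor, which binds IgG2a and IgG2b and lies between Fcgr2b and Fcgr3 on chromosome 1, did not share this course. It had 68, 45 and 79 reads, which were 7.47 rpm (5.80 to 9.47) in BMM-ABs, 6.09 rpm (4.44 to 8.15) in pOC-ABs and 10.3 rpm (8.12 to 12.8) in mOC-ABs. The level was highest in mOC-ABs, but its interval overlapped those of BMM-ABs and, narrowly, pOC-ABs. The log2 ratio of mOC-ABs to pOC-ABs was 0.75 (0.21 to 1.31), a 1.68-fold higher level whose interval did not include 0, and 94.2% of the genes compared had a lower ratio. Against BMM-ABs the intervals included 0, at 0.46 (-0.03 to 0.95) for mOC-ABs and -0.29 (-0.87 to 0.27) for pOC-ABs.

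**Figure D1:**
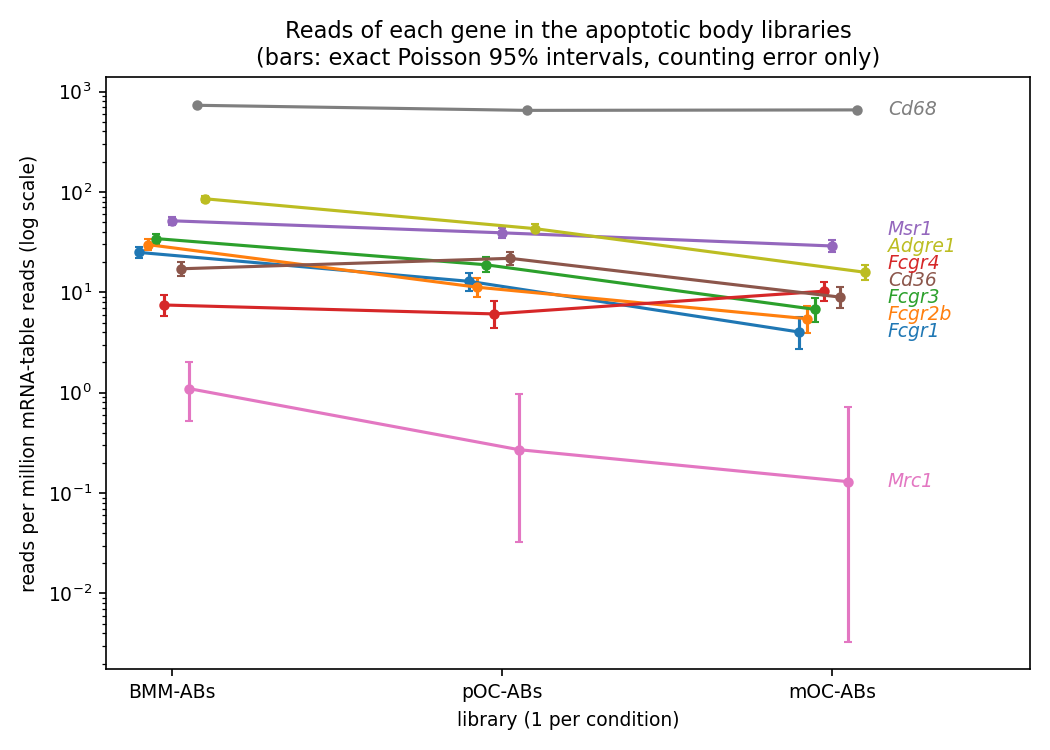
Level of each listed gene in rpm (vertical axis, log scale) in the 3 libraries (horizontal axis, 1 library per condition), with bars for exact Poisson 95% intervals. Cd68 lay far above the rest in every library, Fcgr1, Fcgr2b, Fcgr3 and Adgre1 declined from BMM-ABs to mOC-ABs, and Fcgr4 was at 7.47, 6.09 and 10.3 rpm.

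The make-up of the Fcγ receptor mRNA shifted along with these courses. The 4 genes together had 879, 362 and 204 reads by stage. Fcgr4 held 7.74% of these reads in BMM-ABs (exact binomial 95% interval 6.06 to 9.70%), 12.4% in pOC-ABs (9.21 to 16.3%) and 38.7% in mOC-ABs (32.0 to 45.8%). It was thus the least abundant of the 4 by reads in both earlier libraries and the most abundant in mOC-ABs. The share of Fcgr2b was 30.9% (27.9 to 34.1%), 22.9% (18.7 to 27.6%) and 20.6% (15.3 to 26.8%). That of Fcgr3 was 35.5% (32.3 to 38.8%), 38.4% (33.4 to 43.6%) and 25.5% (19.66 to 32.05%). In mOC-ABs the interval of Fcgr3 thus narrowly overlapped that of Fcgr4, which began at 32.00%.

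**Figure D2:**
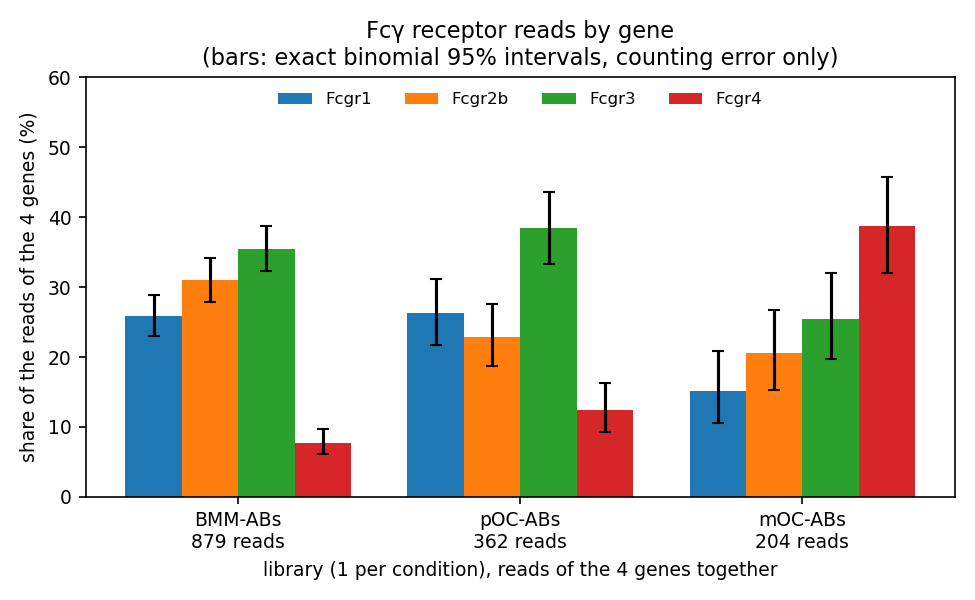
Share of each of the 4 Fcγ receptor genes in their summed reads (vertical axis, %) in each library (horizontal axis), with bars for exact binomial 95% intervals. The Fcgr4 bar goes from 7.74% in BMM-ABs to 38.7% in mOC-ABs.

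Per length, as the sum of the FPKM values of a gene's transcripts, the 4 genes together were at 61.2, 29.7 and 17.6 FPKM by stage, of which Fcgr4 made 9.72%, 16.3% and 46.5%. The summed FPKM of the 3 activating receptors was 2.08, 4.19 and 5.31 times that of Fcgr2b, again by stage. Counting protein-coding transcripts alone, these quotients were 4.21, 7.41 and 7.52. The sum of the 3 activating genes exceeded the 1 inhibitory gene in every library by both counts, and the smallest quotient was that of BMM-ABs. A sum of 3 genes is set against 1 gene here, and the quotients carry no interval. Over all transcripts in BMM-ABs, Fcgr1 (9.63 FPKM) and Fcgr4 (5.95) were each below Fcgr2b (19.9), and Fcgr3 (25.8) was above it.

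Fcgr2b and Fcgr3 share sequence, so that reads could be split between them. Their coding sequences (Fcgr2b-202 and Fcgr3-204) were identical at 87.4% of 731 aligned bases, with a longest identical run of 129 bases, while the other 5 pairs of Fcγ receptors were identical at 64.7 to 67.9% with runs of at most 14 bases. Of the 50-base words in the exons of Fcgr3, 11.4% also occurred in Fcgr2b and in no other gene. For Fcgr2b, 5.31% of such words occurred in another gene, over 145 genes in all, with Fcgr3 sharing the most. The other listed members had 0 words in common with another gene. Levels of Fcgr2b and Fcgr3 are uncertain for this reason, by an amount that the shares of words do not bound. The effect of shared reads on their courses was not tested. The locus of Fcgr2b is also overlapped by the antisense gene Gm38204, and whether reads were assigned by strand is not given in the sources used here.

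Adgre1 (ENSMUSG00000004730.15, chr17:57358691-57483527, plus strand), which encodes the adhesion receptor F4/80, had 777, 318 and 122 reads. Its level was 85.4 rpm (79.5 to 91.6) in BMM-ABs, 43.0 rpm (38.4 to 48.0) in pOC-ABs and 15.8 rpm (13.1 to 18.9) in mOC-ABs. The libraries stood in the same order as for Fcgr1, Fcgr2b and Fcgr3, without overlap. Adgre1 was 1.98-fold lower in pOC-ABs than in BMM-ABs (log2 ratio -0.99, -1.18 to -0.80) and 5.39-fold lower in mOC-ABs (-2.43, -2.72 to -2.15), with -1.44 (-1.76 to -1.14) between pOC-ABs and mOC-ABs.

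Cd68 (ENSMUSG00000018774.13, chr11:69664213-69666153, minus strand), a heavily glycosylated protein of late endosomes and lysosomes, was the member with the most reads, 6638, 4794 and 5056. Its level was 729 rpm (712 to 747) in BMM-ABs, 649 rpm (631 to 668) in pOC-ABs and 656 rpm (638 to 674) in mOC-ABs. The 3 levels lay close together, and the intervals of pOC-ABs and mOC-ABs overlapped. The log2 ratio was -0.17 (-0.22 to -0.11) for pOC-ABs and -0.15 (-0.21 to -0.10) for mOC-ABs against BMM-ABs, and 0.02 (-0.04 to 0.07) between mOC-ABs and pOC-ABs. Differences this small moved with the library scale by more than their counting interval. With the mRNA and lncRNA reads together as the total, the log2 ratios became -0.37 in G1 (pOC-ABs against BMM-ABs), -0.25 in G2 (mOC-ABs against BMM-ABs) and 0.11 in G3 (mOC-ABs against pOC-ABs), and with the upper quartile of gene reads that in G2 became -0.08. The spread between cultures was not measured. The 2 classical macrophage markers therefore parted, Adgre1 being 5.39-fold and Cd68 1.11-fold lower in mOC-ABs than in BMM-ABs.

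Msr1 (ENSMUSG00000025044.16, chr8:39581685-39642673, minus strand), the class A scavenger receptor, had 469, 289 and 223 reads. Its level was 51.5 rpm (47.0 to 56.4), 39.1 rpm (34.7 to 43.9) and 28.9 rpm (25.3 to 33.0) by stage. It too was lowest in mOC-ABs with no overlap of intervals, but by a smaller step, 1.78-fold against BMM-ABs (log2 ratio -0.83, -1.07 to -0.60). The single steps had log2 ratios of -0.40 (-0.61 to -0.18) and -0.43 (-0.69 to -0.18).

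Cd36 (ENSMUSG00000002944.15, chr5:17781690-17888801, minus strand), the class B receptor for fatty acids and oxidised lipoproteins, had 156, 161 and 69 reads. Its level was 17.1 rpm (14.6 to 20.1) in BMM-ABs, 21.8 rpm (18.6 to 25.4) in pOC-ABs and 8.95 rpm (6.97 to 11.3) in mOC-ABs. Unlike the other members it was highest in pOC-ABs, at a log2 ratio of 0.35 (0.02 to 0.67) against BMM-ABs, though the intervals of these levels overlapped, and lowest in mOC-ABs. Between pOC-ABs and mOC-ABs it was 2.43-fold lower (log2 ratio -1.28, -1.71 to -0.87), and between BMM-ABs and mOC-ABs 1.91-fold lower (-0.94, -1.37 to -0.52).

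Mrc1 (ENSMUSG00000026712.3, chr2:14229392-14332057, plus strand), the mannose receptor CD206, had 10, 2 and 1 reads, and it was left out of the counts of members for want of reads. Its log2 ratio of mOC-ABs to BMM-ABs was -3.08, with an interval from -8.52 to -0.27, and the interval of pOC-ABs against BMM-ABs, -5.25 to 0.21, included 0. In pOC-ABs and mOC-ABs its reads did not exceed the 3 that a count of 0 allows. Cd163 (ENSMUSG00000008845.9, chr6:124304656-124330527, plus strand), the haemoglobin scavenger receptor, had no listed transcript.

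Counted together, 1 of 8 members was past the 2-fold limit in pOC-ABs against BMM-ABs (G1), namely Fcgr2b, which was lower. Of all 12702 genes, 6.07% were lower and 4.87% higher past this limit in G1. In mOC-ABs against BMM-ABs (G2), 4 of 8 members were lower past the limit, Fcgr1, Fcgr2b, Fcgr3 and Adgre1, and 0 were higher, where 8.99% of all genes were lower and 4.16% higher. In mOC-ABs against pOC-ABs (G3), 5 members were lower, the same 4 and Cd36, and 0 were higher, where 6.83% of all genes were lower and 3.50% higher. The median log2 ratio of the 8 members was -0.63, -1.64 and -1.16 in these comparisons, beside -0.021, -0.054 and -0.049 over all genes. The 3 comparisons share libraries, so they are not independent of each other, and the members are a description of named genes rather than a sample of genes.

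**Figure D3:**
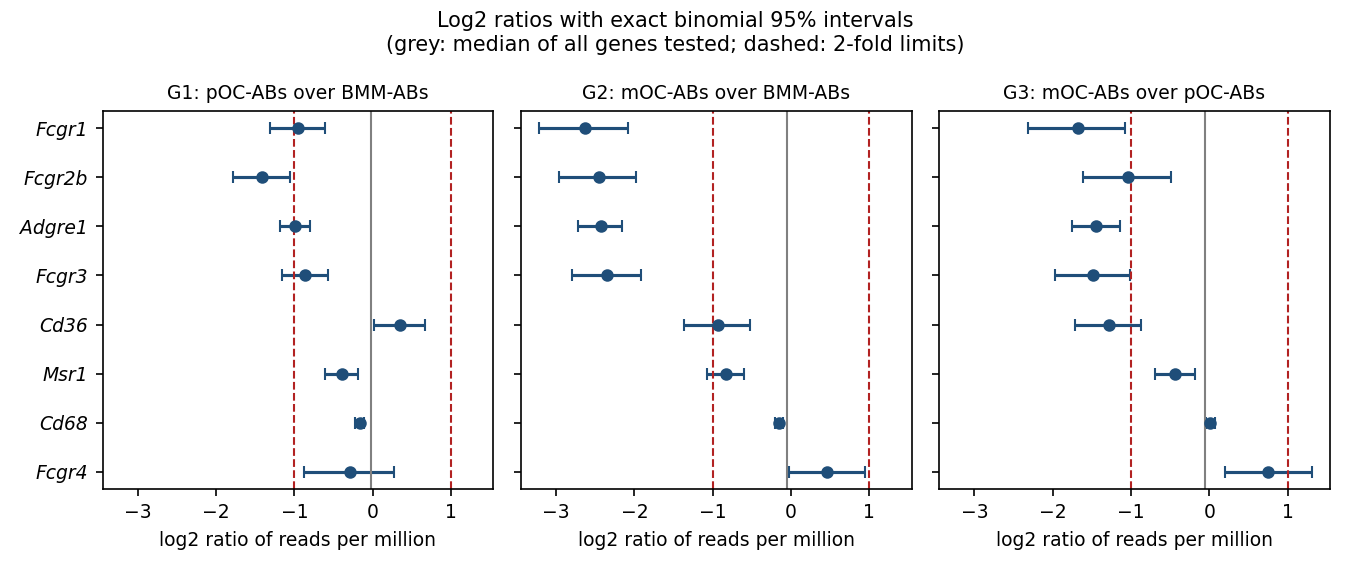
Log2 ratio of the rpm (horizontal axis) of the 8 members with at least 20 reads in each comparison, with bars for exact binomial 95% intervals, a grey line at the median of all 12702 genes and dashed lines at the 2-fold limits. In G2 the points of Fcgr1, Fcgr2b, Fcgr3 and Adgre1 lie between -2.63 and -2.34, those of Cd36 and Msr1 at -0.94 and -0.83, and that of Fcgr4 at 0.46.

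Several members lay close to the limit. In G1, Adgre1 at -0.99, Fcgr1 at -0.96 and Fcgr3 at -0.87 stood just inside it and Fcgr2b alone outside, and with the mRNA and lncRNA reads together as the library total all 4 were past it. In G2, Cd36 at -0.94 stood inside it and was past it in 3 alternatives, at -1.04 with the mRNA and lncRNA reads together, -1.18 by FPKM without a pseudocount and -1.15 with a pseudocount of 0.1. In G3, Fcgr2b at -1.04 was past the limit and fell short of it in 4 of the 8 alternatives tried.

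The members were compared by the shape of their course over the libraries. For each, only the nearest other member was taken, and no groups were formed. By the distance between the pairs of log2 ratios in G1 and G2, which share the BMM-ABs library, Fcgr1, Fcgr2b and Fcgr3 were each nearest to Adgre1, at distances of 0.204, 0.424 and 0.150. Fcgr4 and Msr1 were nearest to Cd68, at 0.622 and 0.717, and Cd36 to Msr1, at 0.751. The likeness was measured over 3 libraries alone.

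Levels of different genes were compared per length. In BMM-ABs the order in FPKM was Cd68 (597), Adgre1 (27.1), Fcgr3 (25.8), Msr1 (20.2), Fcgr2b (19.9), Fcgr1 (9.63), Cd36 (6.09), Fcgr4 (5.95) and Mrc1 (0.204), in which Adgre1 and Fcgr3, Msr1 and Fcgr2b, and Cd36 and Fcgr4 did not differ beyond their counting intervals. In mOC-ABs it was Cd68 (537), Msr1 (12.4), Fcgr4 (8.16), Fcgr3 (5.06), Adgre1 (4.88), Fcgr2b (2.79), Cd36 (2.69), Fcgr1 (1.55) and Mrc1 (0.0242), where the intervals of Fcgr4, Fcgr3 and Adgre1 overlapped from neighbour to neighbour, as did those of Fcgr2b, Cd36 and Fcgr1. In pOC-ABs, Cd68 at 532 FPKM was followed by Msr1 (16.5), Fcgr3 (14.2) and Adgre1 (13.3), whose neighbouring intervals overlapped, and then by Cd36 (7.18), Fcgr2b (5.73), Fcgr1 (4.97) and Fcgr4 (4.85), which overlapped likewise. Cd68 was first and Mrc1 last in all 3 libraries, while Msr1 stood at rank 4 in BMM-ABs and at rank 2 in mOC-ABs, and Fcgr4 at rank 8 and rank 3.

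The reads of a gene were also followed by transcript, for those with at least 10% of the gene's reads in 1 library or more. Reads that fall on exons common to several transcripts are shared out by the counting program, so these shares are estimates. Their intervals and floors cover counting error alone and do not bound the error of that sharing out. The reads assigned to Adgre1 passed from one transcript to the other. Transcript Adgre1-201 had 627 reads in BMM-ABs, 80.7% of the gene's reads (77.7 to 83.4%), and 0 of 318 and 0 of 122 reads in pOC-ABs and mOC-ABs, which allows a share of up to 0.943% and 2.46%. Adgre1-202 had 150, 318 and 122 reads, that is 19.3%, 100% and 100%. Against the floor of 3 reads per library, Adgre1-201 was lower than in BMM-ABs by at least 170-fold in pOC-ABs and by at least 177-fold in mOC-ABs, whereas the level of Adgre1-202 had log2 ratios of 1.38 (1.10 to 1.67) in G1 and -0.06 (-0.41 to 0.30) in G2. Both encode the same 2793 coding bases. Adgre1-202 retains 87 bases after the last coding base, at chr17:57483168-57483254, that are spliced out of Adgre1-201, and has 114 exonic bases that Adgre1-201 lacks, whereas Adgre1-201 has 0 exonic bases of its own. The number of reads across that splice junction is not given in the sources used here. The split of reads between both forms, and the folds from it, thus rest on the counting program.

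Cd36 shifted among transcripts that all encode the same 1416 coding bases and differ outside them. Cd36-206 held 62 of 156 reads in BMM-ABs (39.7%), 33 of 161 in pOC-ABs (20.5%) and 0 of 69 in mOC-ABs, which allows up to 4.35%, and was at least 17.5-fold lower in mOC-ABs than in BMM-ABs. Cd36-204 held 41, 89 and 60 reads, or 26.3% (19.6 to 33.9%), 55.3% (47.3 to 63.1%) and 87.0% (76.7 to 93.9%). The level assigned to Cd36-204 was thus higher in both osteoclast stages than in BMM-ABs, with log2 ratios of 1.42 (0.87 to 1.99) in G1 and 0.79 (0.19 to 1.40) in G2, while that of the whole gene in mOC-ABs was lower. As for Adgre1, the split of reads among these transcripts, and the folds from it, rest on the counting program. Cd36-202 had 27, 28 and 1 reads and Cd36-201 had 13, 11 and 7.

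Of the Fcgr2b forms introduced above, Fcgr2b-201, with the cassette exon, had 42, 39 and 19 reads, or 15.4% (11.4 to 20.3%), 47.0% (35.9 to 58.3%) and 45.2% (29.8 to 61.3%). Fcgr2b-202, without it, had 93, 18 and 14 reads, or 34.2%, 21.7% and 33.3%. Fcgr2b-201 has 2082 exonic bases that Fcgr2b-202 lacks, of which 141 are coding. Fcgr2b-203, with 13, 0 and 0 reads, also has 57 coding bases that Fcgr2b-202 lacks. These shares therefore do not measure inclusion of the cassette exon. A further pair of transcripts does not encode a protein. The retained-intron transcript Fcgr2b-205 had 82, 19 and 7 reads and Fcgr2b-206 had 37, 5 and 1, and the protein-coding share of the reads was 54.4% (48.3 to 60.4%) in BMM-ABs, 68.7% (57.6 to 78.4%) in pOC-ABs and 78.6% (63.2 to 89.7%) in mOC-ABs. By reads Fcgr2b-201 had the largest share in pOC-ABs and mOC-ABs, whereas by FPKM Fcgr2b-202, the shorter transcript, had it, with 29.1% and 44.6%.

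For Fcgr3, the transcript with the 3 further coding bases, Fcgr3-201, had 104, 20 and 24 reads, or 33.3% (28.1 to 38.9%), 14.4% (9.02 to 21.3%) and 46.2% (32.2 to 60.5%), and Fcgr3-204 had 198, 113 and 26, or 63.5%, 81.3% and 50.0%. The share of Fcgr3-201 was lowest in pOC-ABs, whose interval overlapped neither of the others. For Msr1, the type II transcript Msr1-202 had 342, 206 and 146 reads, or 72.9%, 71.3% and 65.5%, and the type I transcript Msr1-201 had 81, 47 and 62, or 17.3%, 16.3% and 27.8% (22.0 to 34.2%). The type I share was highest in mOC-ABs, whose interval lay above those of both other libraries, and there the level of Msr1-201 differed from that in BMM-ABs by a log2 ratio of -0.15 (-0.65 to 0.35) and that of Msr1-202 by -0.99 (-1.28 to -0.70). By FPKM, Msr1-201 had the largest share in mOC-ABs, 45.6%, against 42.0% for Msr1-202. Cd68-201 held 98.5%, 98.6% and 98.5% of the Cd68 reads, and Fcgr1, Fcgr4 and Mrc1 had 1 listed transcript each.

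**Figure D4:**
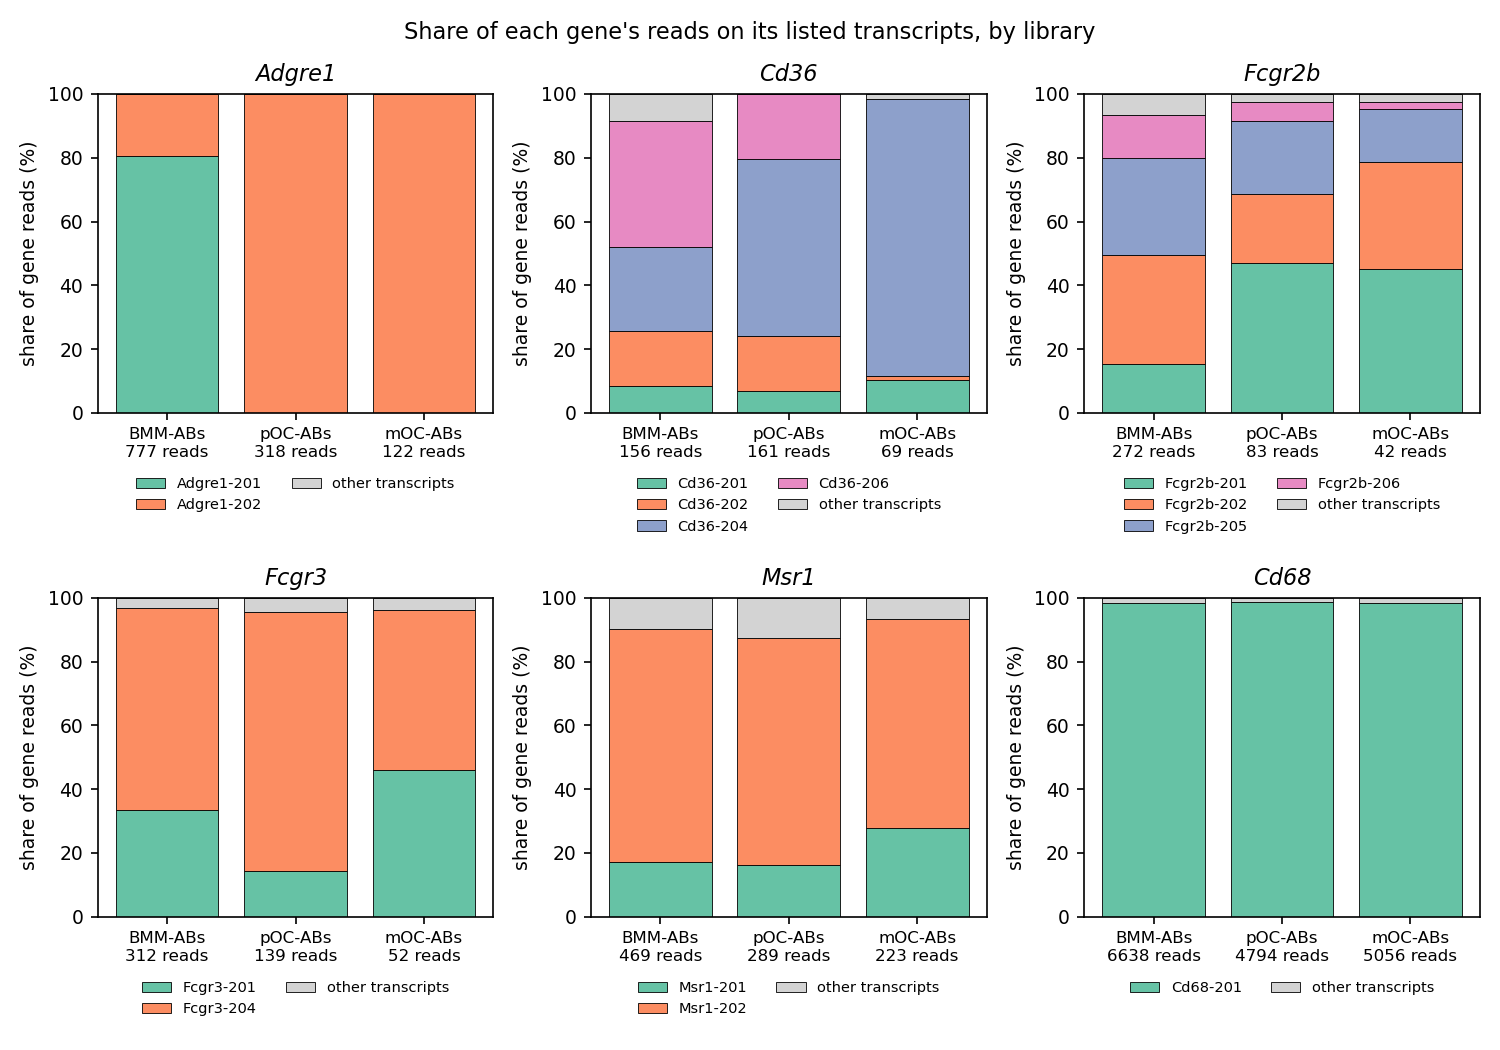
Share of each gene's reads on its transcripts (vertical axis, %) in each library (horizontal axis, with the reads of the gene), for the 6 members with more than 1 listed transcript. Adgre1-201 goes from 80.7% in BMM-ABs to 0 in pOC-ABs and mOC-ABs, Cd36-204 from 26.3% to 87.0%, and Cd68-201 stays above 98%.

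Genes that work beside the members were taken from 3 further lists. Of 14 partners and signalling proteins of Fc receptors, 13 were listed and had at least 20 reads, of which 0 were past the limit in G1, 3 were lower in G2 and 1 was lower in G3, with medians of -0.42, -0.46 and -0.13. Of all 12702 genes, 6.07%, 8.99% and 6.83% were lower past the limit in G1, G2 and G3, so the 1 of 13 in G3 lay near that share. Fcer1g, the γ chain on which Fcgr1, Fcgr3 and Fcgr4 depend, was at 120, 80.1 and 59.4 rpm, and its log2 ratio of mOC-ABs to BMM-ABs was -1.02 (-1.18 to -0.86). The kinase Fgr, at -1.83 (-2.11 to -1.55), and the neonatal receptor Fcgrt, at -1.53 (-2.23 to -0.87), were the others lower in G2, while Ptpn6, the phosphatase SHP-1 recruited by inhibitory receptors, was at 343, 363 and 357 rpm, with a log2 ratio of 0.06 (-0.02 to 0.13). The count of 3 in G2 became 2, without Fcer1g, when libraries were scaled by the upper quartile of gene reads or by median-of-ratios factors.

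Among 18 other scavenger and lectin receptors, 12 were listed and 10 had enough reads. Of these, 3 were lower in G1, 5 in G2 and 2 in G3, 0 were higher, and the medians were -0.66, -1.14 and -0.27. The shares lower over all genes were 6.07%, 8.99% and 6.83%. Clec4e (Mincle), a receptor for mycobacterial glycolipids, was at 23.5, 29.9 and 2.21 rpm and thus, like Cd36, highest in pOC-ABs and lowest in mOC-ABs (log2 ratio in G2 -3.41, -4.22 to -2.70). Clec7a (Dectin-1), the β-glucan receptor, had a log2 ratio of -1.69 in G2 and Colec12 of -1.32, whereas Scarb1, the receptor for high-density lipoprotein, was at -0.38. Scarf1 was at -1.34 (-2.62 to -0.21) in G2 and Ager at -1.57 (-3.17 to -0.21), both on few reads. They had 27, 10 and 9 reads and 21, 5 and 6 reads by stage, and both were also among the genes lower in G1.

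Among 18 other surface proteins of macrophages and monocytes, 14 were listed and 13 had enough reads. Of these, 6 were lower in G1, 9 lower and 1 higher in G2, and 1 lower in G3, with medians of -0.93, -1.40 and -0.23. Over all genes, 6.07% were lower in G1, 8.99% lower and 4.16% higher in G2, and 6.83% lower in G3. The 1 of 13 in G3 lay near that share. Itgam, the CD11b integrin chain, had log2 ratios of -0.74 in G1 and -2.60 in G2, Adgre5 of -1.90 and -2.65, Siglec1 of -1.61 and -2.34, Cx3cr1 of -2.10 and -2.08, and Cd14, the lipopolysaccharide co-receptor, of -0.93 and -1.63. Csf1r, the receptor for M-CSF, had 1085, 357 and 506 rpm and was lowest in pOC-ABs, and Ptprc was at -1.13 in G2. Cd86 was at -1.76 (-3.34 to -0.43) in G2 and Ccr2 at -1.40 (-2.76 to -0.21), both on few reads. They had 24, 7 and 6 reads and 25, 9 and 8 reads by stage. The 1 gene past the limit in the other direction was Cd80, a costimulatory ligand, at 9.01, 13.9 and 22.2 rpm (log2 ratio in G2 1.30, 0.91 to 1.70). Like Fcgr4, Cd80 had its highest level in mOC-ABs, as did some genes of the further lists that are not named here.

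**Figure D5:**
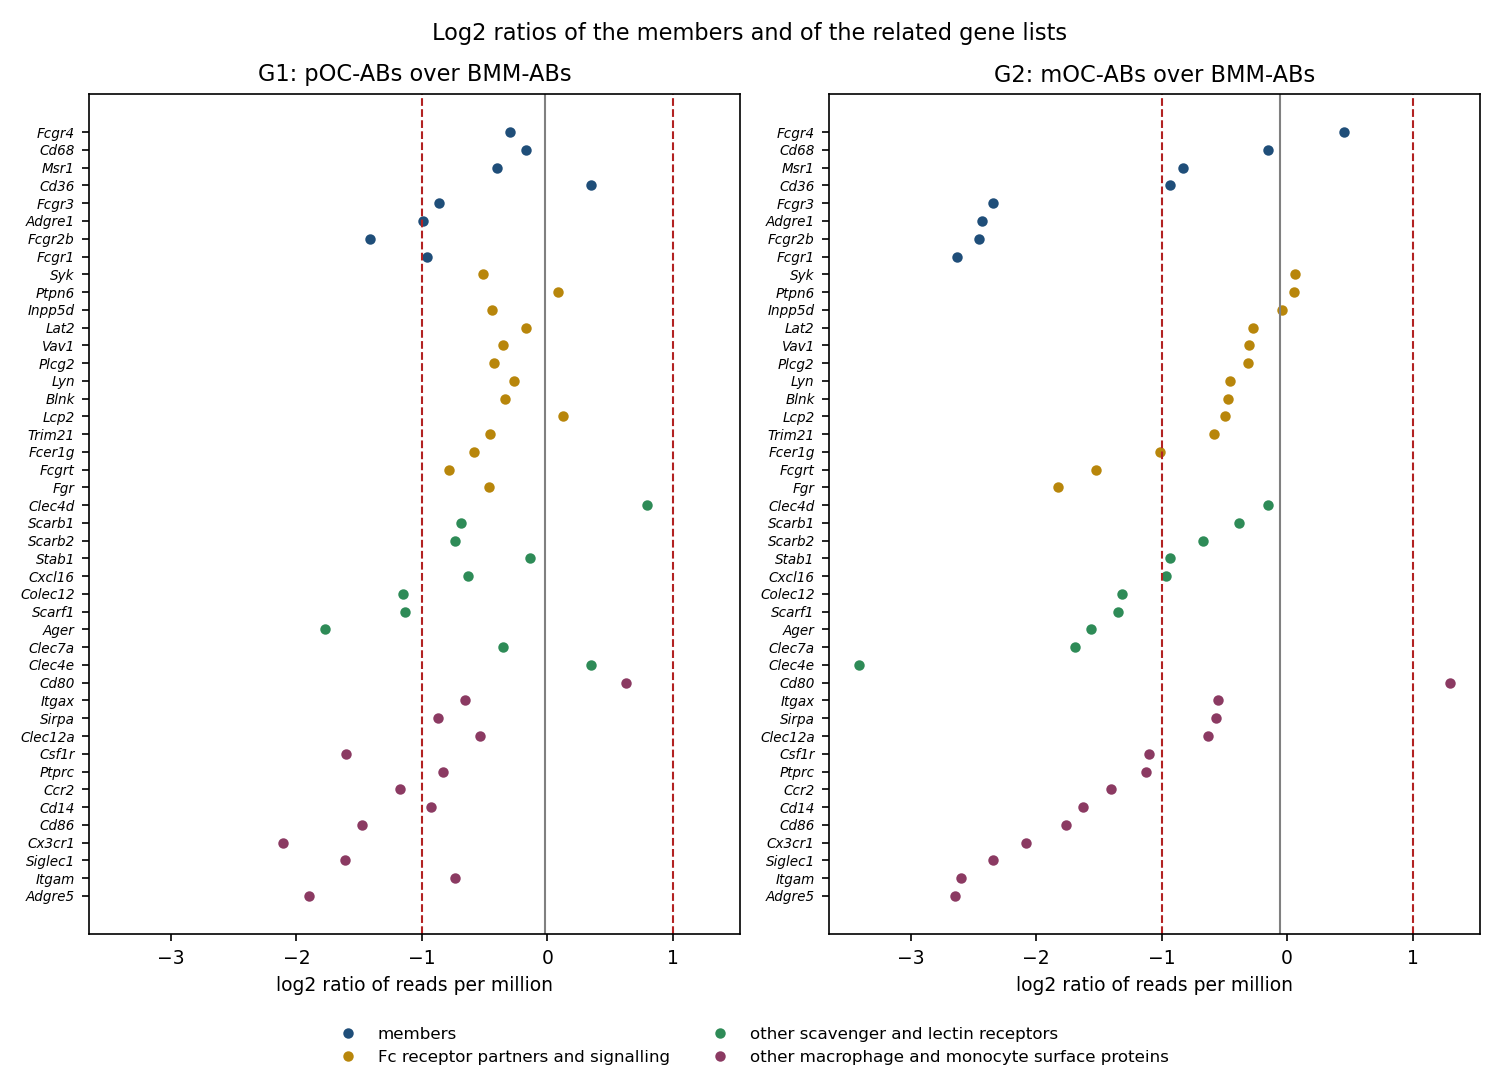
Log2 ratio of the rpm (horizontal axis) in G1 and G2 for the 8 members and the genes of the 3 further lists with at least 20 reads (1 row per gene), with a grey line at the median of all genes and dashed lines at the 2-fold limits. In G2 the list of macrophage and monocyte surface proteins has 9 of 13 genes below the lower limit and Cd80 above the upper one, and the list of Fc receptor partners has 3 of 13 below the lower limit. Of all genes, 8.99% lay below the lower limit in G2 and 4.16% above the upper one.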

How the data were processed

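Poly-A RNA of ABs was sequenced in paired-end libraries, 1 per condition. The authors deposited transcript tables of mRNAs and lncRNAs, with read counts (count) and FPKM, and a circRNA table with junction read counts and a score (SRPBM, deposited by the authors and not used here). The submitters' processing notes name FastQC, HISAT2, StringTie and GRCm38. The circRNA caller and the strand setting are not given in the sources used here. The FPKM deposited by the authors are scaled to kilobases of transcript and to the reads of the mRNA table.

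Transcripts were matched to GENCODE M21 by Ensembl ID (56422 of 56651), and counts and FPKM were summed per gene. Ratios are of reads per 1000000 mRNA-table reads. A gene was past the limit above 2 or below 0.5 among genes with at least 20 reads over the 3 libraries. Intervals at 95% are exact Poisson for levels and exact binomial (Clopper-Pearson) for shares and ratios (scipy 1.17.1, pandas 2.3.3), and sequences were compared with Biopython 1.88. The ratio step was run on simulated counts that held counting error alone. This checks the computation and says nothing of the spread between cultures. Named were all members, their transcripts with at least 10% of the reads in a library, and from each further list the genes past 2-fold in a comparison and the 2 with the highest mean FPKM. The members and lists were chosen with earlier results of these data known, and no list was tested as a set. From the list of Fc receptor partners, 1 gene is not reported here. Alternatives were other library totals, FPKM with pseudocounts of 0, 0.1 and 1, protein-coding transcripts alone and no minimum of reads. All per-sample columns of the 3 tables could be assigned to a library.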

Additional observations from a re-analysis of the deposited data

How the results depend on the processing

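No paired analysis was possible because there was 1 library per condition. Of the 168 ratios of single members under other library scales, FPKM and protein-coding transcripts, 160 moved by less than their counting interval and 0 turned direction. Taking the mRNA and lncRNA reads together as the library total moved every log2 ratio by -0.20, -0.10 and 0.10 (G1, G2, G3). The members past 2-fold in G1 numbered 1 in the report, 4 with that total (Fcgr1, Fcgr2b, Fcgr3 and Adgre1), and 2 with FPKM without a pseudocount, with FPKM and a pseudocount of 0.1, or without a minimum of reads. Without a minimum of reads, the genes past 2-fold numbered 3036, 3382 and 3012 in place of 1389, 1670 and 1313, when genes of few reads entered. The transcript with the largest share was another one by FPKM in 3 of 18 cases, as given for Fcgr2b and Msr1. The 27 counts of the further lists, under scales chosen after seeing the data, changed by up to 1.5 times. With the mRNA and lncRNA reads together, the other macrophage and monocyte surface proteins lower in G1 went from 6 to 9 of 13. The other scavenger and lectin receptors lower in G2 went from 5 to 7 of 10. That total also moved the median log2 ratio of all genes, to -0.22 in G1 and -0.15 in G2. The share of all genes past the limit was not counted with that total. The counts of members and lists under it therefore have no background share beside them. Depth limits what can be said of Mrc1, and the single library per condition limits every ratio.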

Other observations

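Other RNAs were listed at the loci of the members. Of 23718 lncRNA loci, 4 overlapped a member on either strand. The lncRNA at Cd36 (NONMMUT051325.2, chr5:17846306-17849789) had 16, 11 and 10 reads by stage (BMM-ABs first), that at Adgre1 (NONMMUT030162.2, chr17:57358713-57360790) had 9, 14 and 1, that at Fcgr2b had 3, 2 and 0 and that at Msr1 had 2, 1 and 0. Of 1372 circRNA loci, 3 lay at a member, all of them at Adgre1. The exonic circRNA at chr17:57406834-57408495 had 7, 0 and 3 junction reads, the exonic one at chr17:57419322-57420524 had 4, 3 and 4, and the intronic one at chr17:57418888-57420524 had 0, 3 and 0. The junction reads of the exonic Adgre1 circRNAs were few in every library.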
